A study of Mus musculus with 8 samples.

Results

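Prdm1, Xbp1, Mzb1, Creld2, Ell2 and Sdc1, genes of the plasma cell programme, were taken as the rows of the deposited gene table whose name equals one of these symbols. All 6 were present among the 24054 named rows of the table, and 5 of them were among the 11291 genes with enough counts to be tested. The untested one was Prdm1. The genes were followed in 8 polyA-selected RNA-seq libraries from WEHI-control and WEHI-miR-148a, stable lines made from the mouse immature B cell lymphoma WEHI-231. Each line was sampled unstimulated and after 14 h with anti-IgM at 2 ug/ml, an antibody that crosslinks the B cell receptor, and each of the 4 groups had 2 libraries. The labels give replicate 1 of every group 1 prefix and replicate 2 another, taken as run numbers and called run 1 and run 2 here. The labels do not say how miR-148a is expressed in its line, whether each line is 1 clone, or whether the replicates were separate cultures. The p-values therefore set each group difference against the spread of these libraries, and that spread may be technical.

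Plasma cells arise when an activated B cell shuts down its B cell genes and enlarges its secretory machinery. Blimp-1, encoded by Prdm1, is the transcriptional repressor that commits the cell to this fate, and XBP1, a transcription factor of the unfolded protein response, builds up the endoplasmic reticulum (ER) for antibody secretion. MiR-148a is known to promote plasma cell differentiation, with the B cell repressor gene Bach2 and the transcription factor gene Mitf among its described targets.

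Depth ran from 5810227 to 18660373 counts per library, with the lowest totals in replicate 1 of both anti-IgM groups, so that 3 counts corresponded to 0.166 to 0.502 CPM (the count scaled to the library total with a composition factor). All 8 B cell markers passed the expression filter, and their summed level was 2040 to 2300 CPM in 3 groups and 2570 to 2890 CPM in the anti-IgM miR-148a group. The T cell genes Cd3d, Cd3e, Cd3g, Cd4 and Cd8a did not pass the filter, and the summed T cell level of 40.7 to 71.1 CPM was led by Cd8b1. Of 7 myeloid markers, Lyz2, S100a8 and S100a9 were at 0 in every library. The summed myeloid level, led by the integrin gene Itgam, was 0.922 to 1.99 CPM without stimulation, 4.35 to 7.65 CPM in the anti-IgM group of the control line and 9.54 to 11.3 CPM in that of the miR-148a line. Fibroblast markers summed to at most 0.615 CPM and erythroid markers to at most 2.12 CPM.

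The mature microRNA that names the second line is shown with its seed, bases 2 to 8, in capitals, because matches to the seed were searched in the 3' UTRs of the 6 genes. It is encoded on chromosome 6 from 51269829 to 51269850 on the minus strand (RefSeq, GRCm38.p6), and polyA-selected libraries do not measure it.
mmu-miR-148a-3p: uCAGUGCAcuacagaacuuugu
None of the longest 3' UTRs of the 6 genes held a match of the 8mer, 7mer-m8 or 7mer-A1 kind (bases 2 to 8 with or without the A opposite base 1, or bases 2 to 7 with that A). These UTRs are 2490 bases long in Prdm1, 989 in Xbp1, 303 in Mzb1, 247 in Creld2, 1568 in Ell2 and 1908 in Sdc1. Among 10476 tested genes with a 3' UTR, 22.5% held at least 1 match of any of these kinds, in UTRs of 1165 bases at the median. Bach2 and Irf4, which regulate the programme, each held 1 match, shown with its flanking bases and with the match in capitals (GRCm38, both on the plus strand, Bach2 at chromosome 4 from 32581124 to 32581145 and Irf4 at chromosome 13 from 30765780 to 30765801).
Bach2, 8mer: tgccactTGCACTGAgttttga
Irf4, 7mer-m8: gtttgctTGCACTGgaagatgc
Mitf held 1 match of the 7mer-m8 and 1 of the 7mer-A1 kind. A match describes the letters of the UTR and is not a measured site, and other kinds of match and the rest of the messages were not searched.

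Upstream sequence is shown for Creld2 and Xbp1, whose patterns across the libraries are compared below, as the 250 bases before the RefSeq start (GRCm38.p6, plus strand). The Creld2 stretch is chr15:88819396-88819645, and its capitals mark the 2 parts of an ER stress response element, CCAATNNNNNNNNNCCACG, which lies here on the minus strand.
Creld2: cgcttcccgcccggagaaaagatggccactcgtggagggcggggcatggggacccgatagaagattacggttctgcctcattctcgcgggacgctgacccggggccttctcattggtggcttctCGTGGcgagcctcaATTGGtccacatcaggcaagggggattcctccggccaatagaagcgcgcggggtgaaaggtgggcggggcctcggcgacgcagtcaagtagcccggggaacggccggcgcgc
The Xbp1 stretch is chr11:5520391-5520640, and its capitals mark an ACGT core, the centre of the element bound by XBP1 and ATF6.
Xbp1: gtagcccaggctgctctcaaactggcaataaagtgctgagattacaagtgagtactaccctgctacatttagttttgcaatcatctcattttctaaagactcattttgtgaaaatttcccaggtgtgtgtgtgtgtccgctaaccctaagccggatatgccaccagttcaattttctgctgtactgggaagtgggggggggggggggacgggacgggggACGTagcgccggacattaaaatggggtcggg
The full element, searched on both strands, was held by 0.11% of 32851 promoter windows of this length and, among the 5 of the 6 genes with an entry, by Creld2. Either part alone is common, with CCAAT in 33.9% of windows and CCACG in 28.3%, and lies within the full element where that occurs. ACGT, found in 26.9% of windows, stood once in Xbp1 and 3 times in Ell2, and the longer TGACGTGG, found in 0.56%, was in none of the 5. Mzb1 has no entry in the promoter table.

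Prdm1 was close to absent from these cells. A single count was found in replicate 2 of the unstimulated control group (0.0902 CPM), another in the first anti-IgM library of the miR-148a line (0.164 CPM) and 0 in the other 6 libraries, which makes 2 counts among 90411314. In a library at 0, the exact Poisson 95% interval reached 3.69 counts, which is at most 0.618 CPM, and this limit covers counting error only. Prdm1, which lies on chromosome 10 from 44437177 to 44528501 in GRCm38 on the minus strand, could not be compared between groups at this depth.

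The other genes of the programme were present in all 8 libraries, at widely different levels. Compared per length, as CPM per kilobase of merged exons, Mzb1 was at 212 to 317, Creld2 at 114 to 202, Xbp1 at 23.0 to 37.3, Ell2 at 6.24 to 9 and Sdc1 at 0.247 to 0.864. These ranges over the 8 libraries did not overlap between neighbours in that order. On the same scale Irf4, the transcription factor that acts upstream of Blimp-1, was at 21.2 to 94.4 and overlapped Xbp1. The B cell factors Pax5 (13 to 27.6) and Bach2 (7.11 to 9.46), which oppose the plasma cell fate, lay at the level of Xbp1 and of Ell2. The joining chain gene of secreted IgM, Igj (0.0914 to 0.596), overlapped Sdc1.

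**Figure D1:**
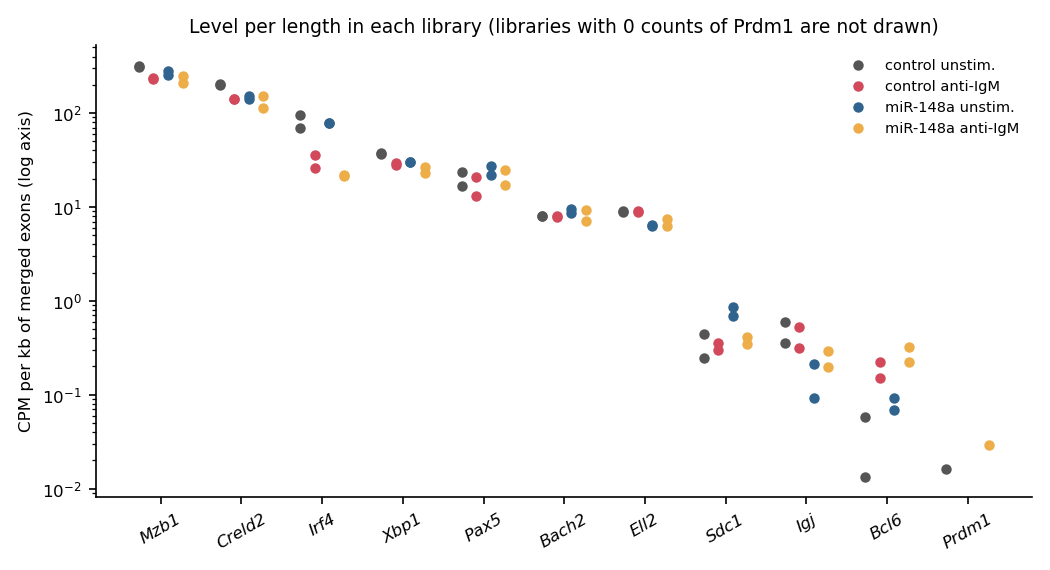
Level per length of the 6 programme genes and 5 context genes in each library (CPM per kilobase of merged exons, log axis), 1 point per library and 1 colour per group. Mzb1 is highest at 212 to 317, Sdc1 is at 0.247 to 0.864, and for Prdm1 only the 2 libraries with 1 count are drawn.

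Anti-IgM was compared with no stimulation in the control line first. Xbp1, Mzb1 and Creld2 fell, to 0.769, 0.744 and 0.703 of their unstimulated level, and Ell2 and Sdc1 did not pass the test. So 3 of the 5 tested genes were called, all lower, where 17% of all tested genes were called and 7.45% were called lower. The median of the 5 log2 fold changes was -0.38, beside 0.01 over all tested genes. In bulk libraries, a lower level in every cell and a loss in some of the cells cannot be told apart.

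Xbp1 (chromosome 11 from 5520659 to 5525893, plus strand) was at 119 and 121 CPM in the unstimulated control libraries, at 89.9 and 94.7 CPM with anti-IgM, at 97.8 and 97.5 CPM in the unstimulated miR-148a libraries and at 87.3 and 74.7 CPM there with anti-IgM. The unstimulated control libraries were the 2 highest, and in each line the groups with and without anti-IgM did not overlap. How many of all tested genes showed such a separation was not counted, here or for the genes below. The fall in the control line was -0.38 ± 0.11 on the log2 scale (standard error, adjusted p = 0.0393, edgeR's quasi-likelihood test with Benjamini-Hochberg adjustment), and it was -0.40 in run 1 and -0.36 in run 2. The call rested on every control library. Without replicate 1 or 2 of the unstimulated group the value was -0.40 (adjusted p = 0.128) or -0.37 (0.155), and without replicate 1 or 2 of the anti-IgM group it was -0.34 (0.167) or -0.42 (0.0962). It was also lost without replicate 1 or 2 of the unstimulated miR-148a group (-0.38, adjusted p = 0.0736 and 0.0737) and when only the 4 control libraries were fitted (-0.38, adjusted p = 0.0528).

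Mzb1 encodes an ER cochaperone that works with the chaperone GRP94, the product of Hsp90b1, in assembling antibody. Its locus is on chromosome 18 from 35647267 to 35649367 on the minus strand, inside the gene model of Spata24 on the same strand, whose row held at most 211 counts in any library. Mzb1 was at 377 and 385 CPM in the unstimulated control libraries, at 287 and 280 CPM with anti-IgM, at 311 and 337 CPM in the unstimulated miR-148a libraries and at 298 and 257 CPM there with anti-IgM. Both unstimulated groups lay above the anti-IgM groups, and the control line spanned the wider distance. The control line response was -0.43 ± 0.10 (adjusted p = 0.0225), at -0.39 in run 1 and -0.46 in run 2. This call, too, was lost without any 1 of the control libraries, with values of -0.44 and -0.42 (adjusted p = 0.0821 and 0.105) without unstimulated replicate 1 or 2 and -0.45 and -0.41 (0.0935 and 0.0919) without anti-IgM replicate 1 or 2.

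Creld2, an ER protein that is induced by ER stress, lies on chromosome 15 from 88819646 to 88826683 on the plus strand. It stood at 276 and 272 CPM in the unstimulated control libraries and at 192 and 194 CPM with anti-IgM, against 209 and 192 CPM in the unstimulated miR-148a libraries and 206 and 156 CPM there with anti-IgM. The unstimulated control libraries stood above all 6 others, whose values overlapped. Its response in the control line was -0.51 ± 0.13 (adjusted p = 0.0294), at -0.53 in run 1 and -0.49 in run 2. Without unstimulated replicate 1 or 2 it was -0.50 and -0.53 (adjusted p = 0.110 and 0.103), and without anti-IgM replicate 1 or 2 it was -0.50 and -0.52 (0.124 and 0.0956), so each of the 4 control libraries was needed for the call.

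Ell2, an elongation factor that favours the secreted form of the immunoglobulin heavy chain message, lies on chromosome 13 from 75706757 to 75772364 on the plus strand. An antisense gene, 1700037F03Rik, overlaps 416 bases of it and is not among the rows used, and the strand setting of the counting is not given in the sources used here. Ell2 was at 86.8 and 88.5 CPM in the unstimulated control libraries and at 87.6 and 88.5 CPM with anti-IgM, and in the miR-148a line at 62.4 and 61.3 CPM unstimulated and 73.8 and 61.4 CPM with anti-IgM. Every miR-148a library was below every control library, and anti-IgM did not separate the libraries of either line. The control line response was 0.01 ± 0.11 (adjusted p = 0.976).

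Sdc1 encodes CD138, the surface proteoglycan by which plasma cells are sorted, and lies on chromosome 12 from 8771323 to 8793715 on the plus strand. It rested on few counts, 17 and 19 in the unstimulated control libraries (0.942 and 1.71 CPM), 8 and 13 with anti-IgM (1.34 and 1.13 CPM), 43 and 34 in the unstimulated miR-148a libraries (3.29 and 2.61 CPM) and 8 and 17 there with anti-IgM (1.32 and 1.57 CPM). The 2 unstimulated miR-148a libraries were the highest, and the other 6 overlapped. Exact Poisson 95% intervals, which cover counting error only, were 2.38 to 4.44 and 1.81 to 3.65 CPM in those 2 libraries and reached from 0.549 to 2.68 CPM over the others, so both intervals overlapped those of other libraries. The control line response was -0.08 ± 0.44 (adjusted p = 0.959), at 0.44 in run 1 and -0.53 in run 2.

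**Figure D2:**
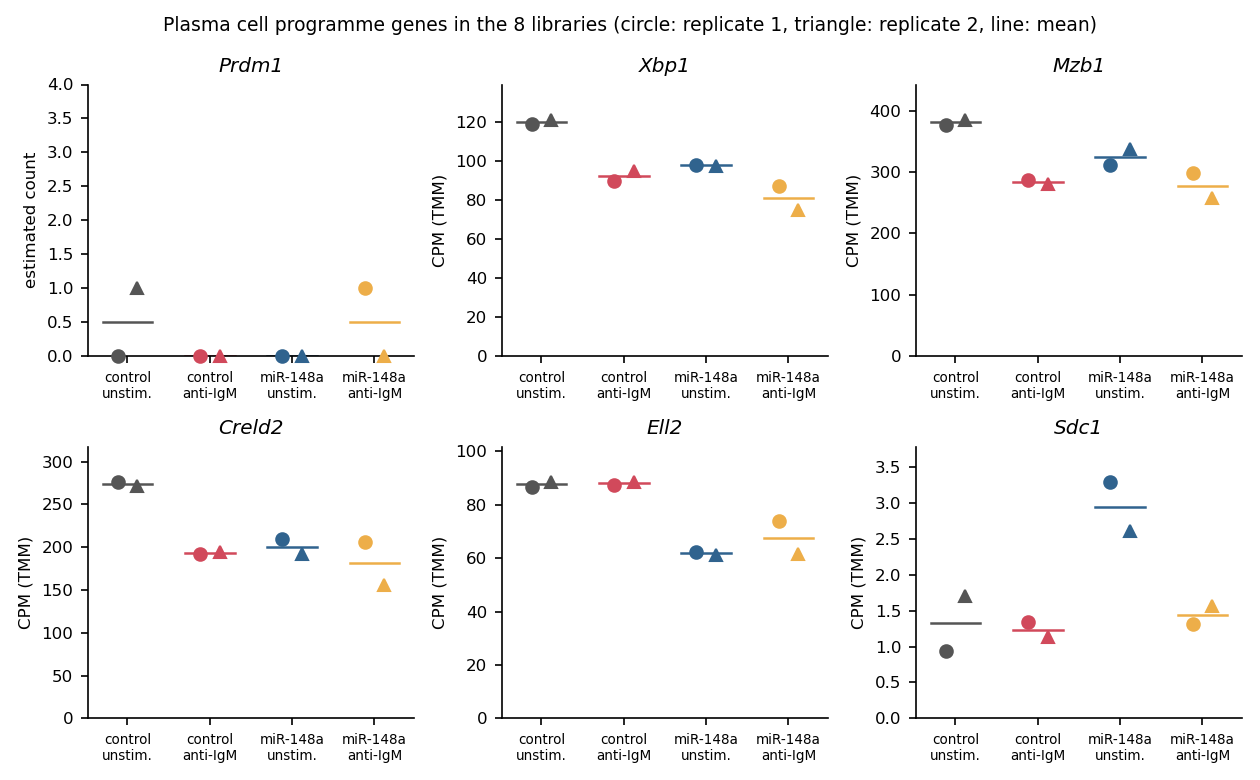
Level of each programme gene in the 8 libraries, by group on the horizontal axis, as CPM on axes from 0 (estimated counts for Prdm1), with replicate 1 as a circle, replicate 2 as a triangle and the mean of both as a line. The unstimulated control libraries are highest for Xbp1, Mzb1 and Creld2, Ell2 is at 61.3 to 73.8 CPM in the miR-148a line against 86.8 to 88.5 CPM in the control line, and Sdc1 is highest in the unstimulated miR-148a libraries.

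In the miR-148a line, none of the 5 genes was called with anti-IgM, where 28.7% of all tested genes were. The log2 fold changes were -0.27 ± 0.11 for Xbp1 (adjusted p = 0.0850), -0.23 ± 0.10 for Mzb1 (0.126), -0.15 ± 0.13 for Creld2 (0.439), 0.12 ± 0.11 for Ell2 (0.445) and -1.01 ± 0.41 for Sdc1 (0.0944). Xbp1 and Sdc1 had an unadjusted p under 0.05, a share of the 5 near the 40.8% over all tested genes, and DESeq2 called 0 of the 5. The median of the 5 was -0.23, beside 0 over all tested genes.

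The runs differed in this line. Xbp1 was at -0.16 in run 1 and -0.38 in run 2, Mzb1 at -0.06 and -0.39, and Creld2 at -0.02 and -0.29. Ell2 was at 0.24 and 0. With the replicate number as a block, 3 of the 5 genes were called lower in the miR-148a line (Xbp1 at -0.28, adjusted p = 0.0177, Mzb1 at -0.23, adjusted p = 0.0313, and Sdc1 at -1.01, adjusted p = 0.0388), while the share of all tested genes called rose to 46.1%. The values of Xbp1, Mzb1 and Creld2 moved with either anti-IgM library. Without replicate 1, a shallow library of 5977803 counts, Xbp1 was called at -0.39 (adjusted p = 0.0372), Mzb1 at -0.34 (0.0464) and Creld2 at -0.36 (0.0444), with 3155 of all genes called. Without replicate 2 they were at -0.16 (adjusted p = 0.391), -0.12 (0.479) and 0.04 (0.839), with 1628 of all genes called. In the control line, the block called Xbp1, Mzb1 and Creld2, as did the fit without it, where 34.8% of all tested genes were called with the block.

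The difference between the responses of the lines was tested as an interaction, miR-148a line minus control line. It was 0.11 ± 0.15 for Xbp1, 0.20 ± 0.14 for Mzb1, 0.36 ± 0.18 for Creld2, 0.12 ± 0.15 for Ell2 and -0.93 ± 0.61 for Sdc1, each with an adjusted p of 0.9996. No gene of the 5 was called, and 0% of all tested genes were called by edgeR, with 484 at an unadjusted p under 0.05, none of the 5 among them. DESeq2 called 1 gene in all, the transferrin receptor gene Tfrc, named after its value was seen. With the block 0.0974% of all tested genes were called, again without any of the 5, whose adjusted p were 0.310 for Creld2 and 0.534 to 0.808 for the rest. The larger falls of Xbp1, Mzb1 and Creld2 in the control line were therefore not shown to differ from those in the miR-148a line.

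**Figure D3:**
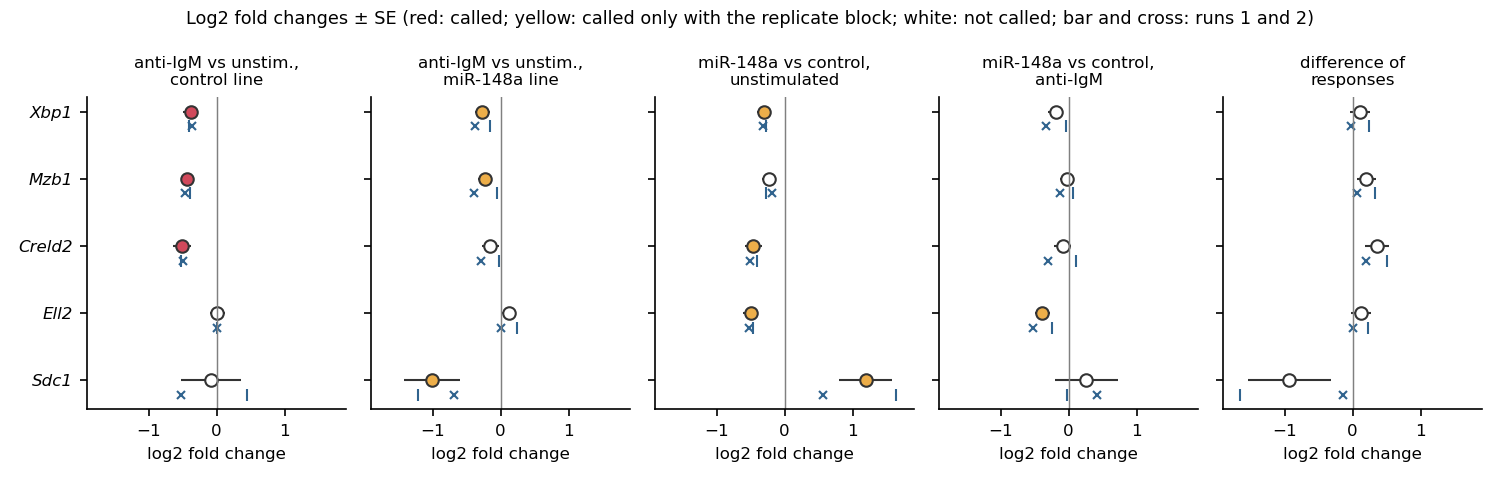
Log2 fold changes with standard errors (horizontal axis) of the 5 tested genes in the 5 comparisons, with the fill giving the call and small marks the values of run 1 (bar) and run 2 (cross). Xbp1, Mzb1 and Creld2 are called lower in the control line at -0.38, -0.43 and -0.51, and Ell2 lies at -0.50 and -0.39 in the comparisons of the lines, called with the replicate block.

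Without stimulation, the miR-148a line was compared with the control line. These values share the unstimulated control libraries with the control line response, so they are not independent of it. None of the 5 genes was called, where 0.487% of all tested genes were, although all 5 had an unadjusted p under 0.05, as did 11.4% of all tested genes. Xbp1 was at -0.30 ± 0.10 (adjusted p = 0.297), Mzb1 at -0.23 ± 0.10 (0.423), Creld2 at -0.46 ± 0.13 (0.195), Ell2 at -0.50 ± 0.11 (0.0944) and Sdc1 at 1.19 ± 0.39 (0.263). In direction, 4 of the 5 genes were lower and Sdc1 was higher in the miR-148a line. The median of the 5 was -0.30, beside 0.01 over all tested genes.

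The runs gave similar values for the first 4, with Xbp1 at -0.28 and -0.32, Mzb1 at -0.27 and -0.19, Creld2 at -0.41 and -0.51 and Ell2 at -0.47 and -0.53 in runs 1 and 2, while Sdc1 was at 1.63 and 0.56. With the replicate block 4 of the 5 were called, Xbp1 (-0.30, adjusted p = 0.0432), Creld2 (-0.46, 0.00683) and Ell2 (-0.50, 0.00340) lower and Sdc1 (1.23, 0.0419) higher, against 7.29% of all tested genes. Mzb1 was not (adjusted p = 0.102). Ell2 was also called by DESeq2 (-0.52, adjusted p = 0.0297) and without the filter on low counts (-0.54, adjusted p = 0.0360).

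With anti-IgM in both lines, none of the 5 genes was called, where 2.52% of all tested genes were. Ell2 was again lower in both miR-148a libraries, at -0.39 ± 0.11 (adjusted p = 0.116), -0.25 in run 1 and -0.53 in run 2, and was the 1 gene of the 5 with an unadjusted p under 0.05, which 18.2% of all tested genes had. With the block it was called (-0.40, adjusted p = 0.0112), where 16.1% of all tested genes were. Xbp1 was at -0.19 ± 0.11 (adjusted p = 0.393), Mzb1 at -0.03 ± 0.10 (0.921), Creld2 at -0.09 ± 0.13 (0.774) and Sdc1 at 0.26 ± 0.46 (0.824), and the libraries of the lines overlapped for the last 3. The median of the 5 was -0.09, beside -0.01 over all tested genes. DESeq2 called 0 of the 5.

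Over the 8 libraries, Xbp1, Mzb1 and Creld2 lay nearer in pattern to one another than to the median tested gene. The root mean square difference of their log2 CPM, each gene centred on its own mean, was 0.0731 between Xbp1 and Mzb1, 0.0853 between Xbp1 and Creld2 and 0.113 between Mzb1 and Creld2, against medians of 0.291 to 0.338 from these 3 genes to all tested genes. Ell2 lay at 0.220 to 0.254 from these 3 and Sdc1 at 0.541 to 0.622. Among 10642 named genes, the 2 nearest to Xbp1 were Dnajb11, an ER cochaperone (0.0308), and Sec31a, a coat protein of vesicles leaving the ER (0.0438). The nearest to Mzb1 were Usp15 (0.0537), a deubiquitinase, and Hdlbp (0.0580), an RNA-binding protein, and those to Creld2 were Ndufaf2 (0.0634), an assembly factor of respiratory complex I, and Hsp90b1 (0.0692), the partner chaperone of the Mzb1 protein. Ell2 was nearest to Morf4l1 (0.0692) and Mtmr9 (0.0697), and Sdc1, whose few counts spread widely, to Nr6a1 (0.210) and Nrg4 (0.232). Neither Xbp1, Mzb1 nor Creld2 was among the 2 genes nearest to another of them, and how many tested genes lay as near was not counted. These likenesses are descriptions over libraries that share lines, treatments and runs.

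Most other XBP1 targets and genes of the secretory pathway went the same way as Xbp1 in the control line, though fewer were called. Of 37 tested, 15 were called lower with anti-IgM and 0 higher, where 7.45% of all tested genes were lower and 9.6% higher. The median log2 fold change was -0.36, and 4 of the 37 were above 0. Herpud1, of ER-associated degradation, fell most, from 196 and 217 CPM to 90.4 and 100 CPM (-1.11 ± 0.13, adjusted p = 0.00163). Sdf2l1, a component of an ER chaperone complex, fell by 0.88 ± 0.18 on the log2 scale (adjusted p = 0.0126) and Edem1, which sends misfolded glycoproteins to degradation, by 0.74 ± 0.13 (0.00702). Hsp90b1 fell by 0.59 ± 0.14 (adjusted p = 0.0219) and Dnajb11 by 0.36 ± 0.10 (0.0447).

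With the replicate block, 17.2% of all tested genes were lower and 17.6% higher in the control line. The count of 15 moved with single libraries, as did the calls over all tested genes. It was 5 without unstimulated control replicate 1, 2 without replicate 2, 3 without anti-IgM control replicate 1 and 7 without replicate 2, at medians of -0.33 to -0.39, and 24 lower and 1 higher with the replicate block. Herpud1 kept its call without each of the libraries in turn. Sdf2l1 lost it without unstimulated replicate 2 (-0.72, adjusted p = 0.0775) or anti-IgM replicate 1 (-0.67, 0.0772), and Edem1 without unstimulated replicate 2 (-0.63, 0.0526). Hsp90b1 lost it without any 1 control library (-0.52 to -0.67, adjusted p = 0.0558 to 0.102). So did Dnajb11 (-0.34 to -0.39, adjusted p = 0.121 to 0.178), which lost it also without unstimulated miR-148a replicate 1 (-0.36, 0.0806) or 2 (-0.36, 0.0790).

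In the miR-148a line 9 of the 37 fell and 2 rose, with a median of -0.23, where 14% of all tested genes were lower and 14.7% higher. Herpud1 (-1 ± 0.13, adjusted p = 0.00108), Edem1 (-0.64 ± 0.13, 0.00666) and Srprb, a subunit of the receptor for the signal recognition particle (-0.63 ± 0.10, 0.00267), fell most, and Derl3 and Os9, both of ER-associated degradation, rose by 0.41 ± 0.12 and 0.34 ± 0.11. Derl3 lost its call without replicate 1 of the unstimulated miR-148a group (0.28, adjusted p = 0.244) or replicate 2 of its anti-IgM group (0.32, 0.179) and with only the 4 libraries compared (0.42, 0.0610). Os9 lost its call without any 1 library other than anti-IgM replicate 1 of that line (0.24 to 0.42, adjusted p = 0.0626 to 0.294), without the filter (0.33, 0.0786), by DESeq2 (0.34, 0.0736) and with only the 4 libraries (0.35, 0.0830). Without anti-IgM replicate 1 of that line the counts were 17 lower and 2 higher at a median of -0.40, without its replicate 2 they were 3 and 0, without unstimulated replicate 1 or 2 they were 3 and 0 or 4 and 1, and without control unstimulated replicate 1 or 2 they were 5 and 1 in each case. The block gave 18 lower and 3 higher, where 23.3% of all tested genes were lower and 22.8% higher. Calls over all tested genes also moved without either unstimulated library of that line or its anti-IgM replicate 2. They moved little without its anti-IgM replicate 1 or either unstimulated control library, where the counts of the list did change. No gene of the 37 was called in the interaction, whose median was 0.11.

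**Figure D4:**
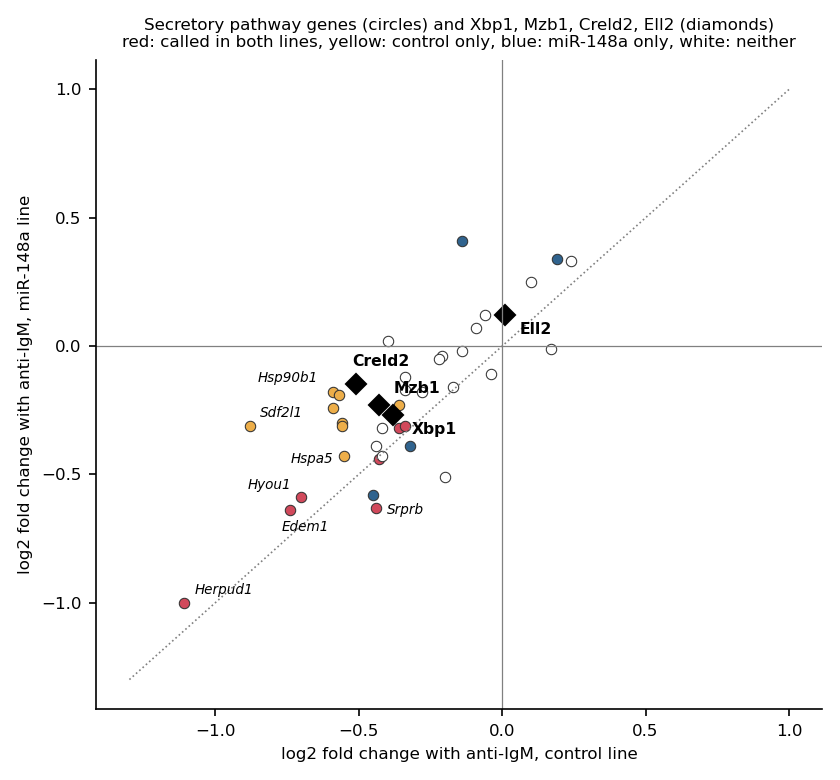
Log2 fold change with anti-IgM in the control line (horizontal axis) and in the miR-148a line (vertical axis) of 37 secretory pathway genes (circles, filled by call) and of Xbp1, Mzb1, Creld2 and Ell2 (diamonds), with a dotted line of equal change. Herpud1 is at -1.11 and -1, Xbp1, Mzb1 and Creld2 lie among the genes below 0 in both lines, and Ell2 is at 0.01 and 0.12.

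Between the lines, 2 of the 37 genes were called, both lower in the miR-148a line in either condition. Over all tested genes, 0.487% were called without stimulation and 2.52% with anti-IgM. Pdia3, a disulphide isomerase of glycoprotein folding, was at 1330 and 1100 CPM in the unstimulated control and 641 and 623 CPM in the unstimulated miR-148a libraries (-0.94 ± 0.13, adjusted p = 0.0218), and at -0.77 ± 0.13 with anti-IgM (0.0243). Calr, its lectin partner, was at -0.67 ± 0.09 (adjusted p = 0.0218) and -0.50 ± 0.09 (0.0277). Without stimulation both calls were lost without any 1 of the 4 libraries compared, at -0.80 to -1.09 for Pdia3 (adjusted p = 0.0640 to 0.274) and -0.63 to -0.72 for Calr (0.104 to 0.274). With anti-IgM, Pdia3 lost its call without control replicate 1 (-0.73, adjusted p = 0.0940) or 2 (-0.81, 0.137) or miR-148a replicate 2 (-0.62, 0.114). Calr lost it there without any 1 of 6 libraries, the 4 compared and both unstimulated miR-148a ones (-0.43 to -0.57, adjusted p = 0.0520 to 0.198). The list had a median of -0.22 unstimulated and -0.11 with anti-IgM. The block called 14 lower and 1 higher without stimulation, where it called 7.29% of all tested genes. With anti-IgM it called 5 lower and 1 higher, a share near the 16.1% over all tested genes.

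Irf4, which cooperates with Blimp-1 and acts upstream of it, fell in both lines. It went from 337 and 463 CPM to 127 and 175 CPM in the control line (-1.40 ± 0.18, adjusted p = 0.00210) and from 388 and 383 CPM to 107 and 104 CPM in the miR-148a line (-1.87 ± 0.18, adjusted p = 0.000427). Both calls held without each of the libraries in turn. With anti-IgM the line difference was -0.53 ± 0.18 (adjusted p = 0.170), called with the block (-0.52, adjusted p = 0.0108) and by DESeq2 (-0.53, 0.0474). Of the 13 other regulators of plasma cell fate tested, Irf4 included, 4 rose and 1 fell in each line, where 9.6% of all tested genes were higher in the control line and 14.7% in the miR-148a line. Those that rose included Pou2af1, a B cell coactivator (0.86 ± 0.13 and 0.89 ± 0.13, adjusted p = 0.00361 and 0.00147), and the repressor Zbtb32 (0.67 ± 0.10 and 1.23 ± 0.11, adjusted p = 0.00436 and 0.000346). The medians of the 13 were -0.07 and -0.08. Between the lines, Zbtb32 alone of the 13 was called, lower in the unstimulated miR-148a line (means of 90.1 against 158 CPM). Over all tested genes 0.487% were called there. This call was lost without any 1 of the 4 libraries compared (-0.73 to -0.9).

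Factors of the B cell state that oppose the plasma cell fate, several of them repressed by Blimp-1 in plasma cells, moved in both directions. Of 13 tested, 6 rose and 1 fell in the control line and 4 rose and 1 fell in the miR-148a line, at medians of -0.03 and 0.41. Over all tested genes, 9.6% were higher and 7.45% lower in the control line, and 14.7% and 14% in the miR-148a line. Id3, an inhibitor of E proteins, rose by 1.64 ± 0.21 and 1.69 ± 0.22 (adjusted p = 0.00234 and 0.00106), while Myc fell by 1.5 ± 0.31 and 2.08 ± 0.32 on the log2 scale (0.0141 and 0.00208), its control line call being lost without unstimulated replicate 2 (-1.40, 0.0669). Ciita, the activator of MHC class II genes, averaged 34 CPM in the unstimulated control and 10.9 CPM in the unstimulated miR-148a libraries. edgeR's fit of all 8 libraries with the filter and no block did not call this difference. It was called with the block (-1.71, adjusted p = 0.000552), without the filter (-1.68, 0.00623) and with only the 4 libraries compared (-1.65, 0.0481). With anti-IgM, Ciita rose by 2.37 ± 0.39 in the miR-148a line (adjusted p = 0.00257). In the control line it was at 1.35 ± 0.35 (adjusted p = 0.0316), a call lost without unstimulated replicate 1 (1.39, 0.106) or 2 (1.30, 0.134) or anti-IgM replicate 1 (1.52, 0.0691) or 2 (1.13, 0.137) and by DESeq2 (1.33, 0.0621). The count of 7 called in the control line was 4 without unstimulated replicate 1 or anti-IgM replicate 2, 3 without anti-IgM replicate 1 and 2 without unstimulated replicate 2, and 9 with the block. In the miR-148a line the block called 10. Its share of all tested genes was 34.8% for the control line and 46.1% for the miR-148a line.

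Pax5, which sets B cell identity, was not called in the control line (-0.23 ± 0.26, adjusted p = 0.588) or in the miR-148a line (-0.25, 0.513), and was called lower in both with the block (adjusted p = 0.0357 and 0.0182). The block also called it higher in the miR-148a line without and with anti-IgM (0.0369 and 0.0371), where the values without the block were 0.30 ± 0.26 and 0.28 ± 0.26. Bach2, whose UTR holds the 8mer shown above, was at 80.1 and 79.0 CPM in the unstimulated control and 84.9 and 94.0 CPM in the unstimulated miR-148a libraries, a log2 difference of 0.17 ± 0.13 (adjusted p = 0.710 without and 0.345 with the block). Mitf, also a described target, averaged 9.05 CPM in the unstimulated control and 5.45 CPM in the unstimulated miR-148a libraries. With anti-IgM it averaged 8.58 and 8.16 CPM, and without the block it was not called between the lines. With the block, 2 of the 13 factors were called higher and 2 lower in the miR-148a line without stimulation. With anti-IgM the block called 4 higher and 2 lower. It called 7.29% and 16.1% of all tested genes in these 2 comparisons. Bcl6, the repressor of Prdm1 in germinal centre cells, was at most 2.14 CPM. It was called higher in the control line at 2.22 ± 0.63 (adjusted p = 0.0424), on 7 and 1 counts without stimulation and 6 and 17 with anti-IgM, and the call was lost without any 1 of the 8 libraries (1.69 to 3.66, adjusted p = 0.0506 to 0.226). Igj rested on 3 to 27 counts per library and was not called in any of the 5 comparisons, with or without the block.

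Of 14 tested surface, survival and cargo genes of plasma cells, 2 rose and 1 fell in the control line and 4 rose and 1 fell in the miR-148a line, at medians of 0.07 and 0.25, where 17% and 28.7% of all tested genes were called, so these shares were near those of all genes. Cd38, an enzyme on the surface of plasma cells and other lymphocytes, rose by 1.51 ± 0.19 and 2.22 ± 0.20 (adjusted p = 0.00219 and 0.000372), and Ly6k fell by 1.07 ± 0.13 and 1.26 ± 0.13 on the log2 scale (0.00188 and 0.000557). The miR-148a count of 5 was 2 without unstimulated replicate 1 and 3 without anti-IgM replicate 2, and 8 with the block. With the block 46.1% of all tested genes were called in that line. Tnfrsf17, the gene of the survival receptor BCMA, Cd28, Cd93, Ly6c2 and Epcam did not pass the filter and were at most 0.541 CPM.

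Of 19 partners of ELL2 in elongation and in processing of immunoglobulin messages, 2 fell in the control line at a median of -0.04, Eaf1, an ELL-associated factor, at -0.52 ± 0.13 and Cstf2, a cleavage factor, at -0.33 ± 0.09. Over all tested genes, 17% were called there and 7.45% were lower, so the share of these partners was near that of all genes. In the miR-148a line 3 fell and 2 rose at a median of -0.10, a share near the 28.7% called over all tested genes, among them Eaf2, the paralogue of Eaf1, at 1.31 ± 0.23 (adjusted p = 0.00385) and Eaf1 at -0.63 ± 0.13 (0.00609). Between the lines none of the 19 was called, and with the block 1 was lower without stimulation, where 7.29% of all tested genes were called. In the control line Eaf1 lost its call without unstimulated replicate 1 or 2 or anti-IgM replicate 1 (-0.43 to -0.53, adjusted p = 0.0879 to 0.138), and Cstf2 without any 1 of the control or unstimulated miR-148a libraries (-0.28 to -0.39, adjusted p = 0.0747 to 0.186). The block gave 4 higher and 4 lower there. Over all tested genes it called 34.8% in the control line and 46.1% in the miR-148a line. The miR-148a count of 5 was 3 without unstimulated replicate 1 or anti-IgM replicate 2 and 12 with the block.

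Of 11 tested relatives of the 6 genes and of stress factors related to XBP1, Atf4, the factor of the integrated stress response, fell by 0.77 ± 0.14 and 1.02 ± 0.14 on the log2 scale in the control and miR-148a line (adjusted p = 0.00788 and 0.00130). Its control line call was lost without unstimulated replicate 2 (-0.69, adjusted p = 0.0528). In all, 3 of the 11 fell in the control line, and 2 fell and 2 rose in the miR-148a line, at medians of -0.04 and -0.10. Over all tested genes, 7.45% were lower in the control line, and 14% were lower and 14.7% higher in the miR-148a line. The control count was 1 without unstimulated replicate 1 or 2 or anti-IgM replicate 1, and the miR-148a count of 4 was 1 by DESeq2 and without unstimulated replicate 1 or 2 or anti-IgM replicate 2, and 2 without anti-IgM replicate 1. Sdc2 and Atf3 did not pass the filter.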

How the data were processed

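The values are the authors' estimated counts, in 1 deposited table with a row per gene symbol (expected counts, not normalised, 9.55% to 12.8% of the values of a library not whole), which were rounded to whole numbers. Per the submitters' processing notes, which give neither role nor order, TopHat2 2.0.13, Bowtie2, cutadapt, edgeR, Partek 6.15.0730 and CASAVA 1.8 were used with the builds GRCm38 and mm10. RNA was extracted with Trizol and libraries made with a directional kit, per the labels' protocols. Which annotation and strand setting the counting used is not given in the sources used here. Of 24081 rows, 27 with names turned into dates (0.213% to 0.235% of counts) were left out.

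Groups came from the labels, 4 groups of 2. The test was edgeR 4.0.16's quasi-likelihood F test on all 8 libraries with 4 group means (filterByExpr, a minimum of 0.881 CPM, TMM factors, 4 residual degrees of freedom), with Benjamini-Hochberg adjustment over 11291 genes and a threshold of 0.05, in R 4.3.3 with limma 3.58.1. It was tested on simulated data with larger changes than those called for Xbp1, Mzb1 and Creld2 and with no run effect. That check does not cover changes of this size. The standard error is the log2 fold change divided by the root of F. Run values are differences of log2 CPM (prior count 2) without a test. Replicates differed by more than sampling noise (mean chi-square per gene 9.4 to 13.6). Same-numbered libraries deviated together in all 6 pairs of groups (r across genes, which are not independent, 0.495 to 0.569), so the numbers, which follow the run prefix in the labels, pair the libraries, and the values with the replicate block (3 degrees of freedom) are given where they change a call. Across genes the biological coefficient of variation was 11.1% (5.98% in the blocked fit).

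Alternatives were RLE factors, no filter, DESeq2 1.42.0, the block, only the 4 libraries compared, and leaving out each library. Exon lengths, loci and 3' UTRs came from GENCODE M21 (GRCm38), the promoters and the microRNA from RefSeq. Named genes were the 6 genes, Irf4, Pax5, Bach2, Bcl6 and Igj, up to 3 called genes of largest change per list and comparison, and the 2 nearest patterns per gene. Dnajb11, Hsp90b1, Derl3 and Os9 in the list results, the level of Mitf, and the genes named as not tested, were added after their values were seen. The genes and lists were chosen with earlier results of these data known.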

Additional observations from a re-analysis of the deposited data

How the results depend on the processing

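No result reversed its direction while called. The control line response had 3 of the 5 genes called, and 0 to 3 when 1 library was left out. The miR-148a line response had 0, with 3 under the replicate block and 0 to 3 when 1 library was left out. The unstimulated line difference had 0, with 1 without the filter, 1 by DESeq2 and 4 with the block, and the anti-IgM line difference had 0, with 1 with the block. Over all tested genes, the block moved the calls from 1925 to 3929 in the control line, from 3238 to 5205 in the miR-148a line, from 55 to 823 and from 284 to 1822 between the lines without and with anti-IgM, and from 0 to 11 in the interaction, where DESeq2 called 1. Leaving out 1 library gave 540 to 2082 and 1481 to 3155 calls for the responses and 0 to 76 and 0 to 222 for the line differences. Without the filter the line differences had 179 and 450 calls, DESeq2 gave 151 without stimulation, and the 4 anti-IgM libraries alone gave 16. For the 5 genes, 291 single values kept their side of the threshold under an alternative, 13 moved past it and 15 fell short of it. The block changed no call of the 5 genes other than those given with the results. Where 1 library was left out, its group had a single library, assumed to vary like the other groups. The cause of these shifts was not tested. Depth limits Prdm1 and Sdc1, and 2 libraries per group limit all comparisons.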
